A study of Mus musculus with 2 samples.

Results

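Pericentral hepatocyte nuclei, those with the strongest transcript signature of the hepatocytes around the central vein, were taken from 2 single-nucleus RNA libraries of mouse liver after partial hepatectomy. They numbered 2430 of 29613 barcodes, 1080 of 14912 in the HKO library and 1350 of 14701 in the WT library. Barcodes were first gated as hepatocyte nuclei, with under 10% mitochondrial UMIs, at least 2000 UMIs (unique molecular identifiers, each standing for 1 captured RNA molecule) and at most 1 UMI summed over 9 genes of other liver cells (Stab2, Ptprb, Adgre1, Timd4, Reln, Ntm, Skap1, Pax5 and Flt3). That gate held 7199 HKO and 9001 WT nuclei. Within each library they were ranked by the share of their UMIs that came from Slc1a2, Glul, Lgr5, Slc22a3, Cyp2c38, Rcan2, Kif26b and Sgcz, and the top 15% were kept. These 8 genes chose the members and are not described further. The last nucleus kept had a share of 0.13138% in HKO and the first one left out 0.13136%, and in WT these shares were 0.14225% and 0.14218%. No gap separated members from the rest, so the class is a range along a gradient. Of the gated nuclei, 28.4% in HKO and 27.1% in WT held no UMI of the 8 genes.

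Hepatocytes differ along the line from the portal vein, where blood enters the lobule, to the central vein, where it leaves. Wnt ligands from the endothelium of the central vein stabilise beta-catenin in the nearest hepatocytes, which make glutamine from ammonia, form bile acids and oxidise drugs with cytochrome P450 enzymes. Periportal hepatocytes make urea and glucose and break down amino acids such as serine, glycine and histidine.

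The series compares Sox9HKO with Sox9f/f mice, the latter with loxP-flanked alleles of Sox9, a transcription factor gene of bile duct cells. The 2 libraries are titled HKO and WT, and the groups here follow those titles. Both were C57BL/6 livers at 12 weeks of age and 48 h after partial hepatectomy (PHx), so neither group was unoperated. The labels do not spell out HKO, tie the WT title to Sox9f/f, name the Cre driver or say how many animals gave each library. Each group was 1 library, so no p-value was computed: intervals are exact 95% intervals that cover counting error only, and the spread between animals is unknown.

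Members held 4806718 UMIs in HKO and 5466005 in WT. The 2000 UMI minimum removed 3856 barcodes in HKO and 288 in WT. The members' median depth was 3722 UMIs against 4109 in the other gated nuclei in HKO, and 3456.5 against 3309 in WT. Median mitochondrial shares were 0.0907% against 0.0737% in HKO and 0.308% against 0.319% in WT. Haemoglobin transcripts were at 3.12 CPM (UMIs of a gene as parts of all UMIs, scaled to 1000000) in members against 47.3 in other gated nuclei in HKO and at 4.02 against 24.6 in WT, and their part in the results was not tested. The libraries shared 70 barcodes, of which 2 belonged to HKO members and 6 to WT members. No doublet caller was run. Levels below are CPM of summed UMIs, with the 8 ranking and 9 gate genes left out of the total, and log2 ratios, but not folds, carry a pseudocount of 0.5 CPM.

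Genes known to be pericentral that played no role in the ranking were higher in the members, and periportal genes were lower, so the label held in both libraries. Of 44 listed pericentral genes outside the rule, 38 reached a mean of 10 CPM. Of these, 19 were at least 1.5-fold higher in members in both libraries and none was 1.5-fold lower in both. The 19 include Cyp2c29, Cyp2c37, Cyp2c50 and Cyp2c54, neighbours and relatives of the ranking gene Cyp2c38 that can share its reads. Those Cyp2c genes are therefore not independent of the ranking. Over all 8432 genes tested, 1.3% (110) were that much higher and 1.04% (88) that much lower. The median log2 ratio of the pericentral list was 0.94 in HKO and 0.76 in WT, against 0.00 in HKO and -0.02 in WT over all genes tested, and 36 of its 38 genes were above 0 in both. Of 26 periportal genes tested, of 28 listed, 14 were lower in both libraries and none was higher, with medians of -0.85 in HKO and -0.80 in WT. The members, lists and thresholds were chosen with results from these libraries known.

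**Figure D1:**
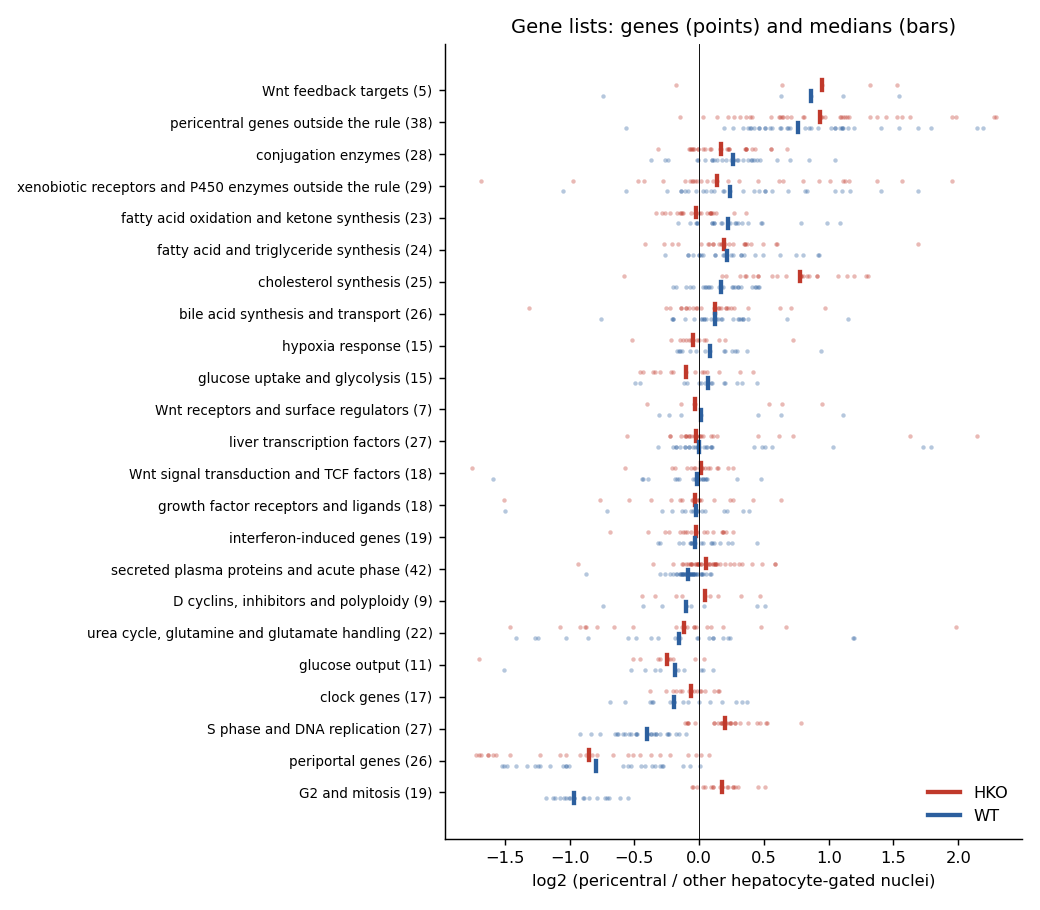
Log2 ratio of pericentral over other hepatocyte-gated nuclei (x axis) for each gene list with at least 5 tested genes (y axis, number tested in brackets), with points for genes and bars for list medians, in HKO (red) and WT (blue). The pericentral list has medians of 0.94 in HKO and 0.76 in WT and the periportal list of -0.85 in HKO and -0.80 in WT, while the G2 and mitosis list stands at 0.18 in HKO and -0.96 in WT.

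Markers of the neighbouring nonparenchymal cells were at similar levels in members and other gated nuclei, whereas erythroid markers were lower and the T and NK cell list higher in members. Summed endothelial markers were at 119 against 115 CPM in HKO and 141 against 152 in WT, and none of the 16 was at 0. They were at 635 and 486 CPM in nuclei that failed the gate. Central vein endothelial markers, from the cells next to pericentral hepatocytes, were at 28.2 against 22.7 CPM in HKO and 36.4 against 36.9 in WT. Macrophage markers (355 against 359.8 CPM in HKO, 449.7 against 428 in WT) and stellate cell markers (125 against 116, 140.0 against 154) were similar too. Erythroid markers were at 28.6 against 66.8 CPM in HKO and 31.2 against 49.3 in WT. The T and NK cell list was at 73.1 against 21.9 CPM in HKO and 39.3 against 17.6 in WT. Most of it came from Themis, a T cell signalling gene, named after its values were seen. Themis was at 63.1 against 13.2 CPM in HKO and 27.6 against 8.46 CPM in WT, whereas the other 10 markers of the list summed to 10.0 against 8.76 CPM in HKO and 11.8 against 9.18 in WT, with Cd3e and Klrd1 at 0 in HKO members and Nkg7 at 0 in WT members. The part of these cells' RNA in the results was not tested.

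The gene that set the members apart most was Meg3, a long noncoding RNA expressed from the maternal allele of an imprinted cluster (chr12:109541001-109571726, GRCm38). Meg3 was at 371 against 14.4 CPM in HKO and 529.6 against 18.6 CPM in WT, a difference of 25.7-fold (95% interval 23.1 to 28.7) in HKO and 28.5-fold (26.1 to 31.3) in WT. Mirg, a second noncoding RNA of that cluster (chr12:109729764-109749460), was at 31.5 against 4.896 CPM in HKO and 42.6 against 4.23 CPM in WT. The members thus carried Mirg past the mean of 10 CPM that genes needed. Dlk1, the cluster's paternally expressed coding gene, named here after its values were seen, had no UMI in members of either library. After thinning each nucleus to 2000 UMIs, Meg3 was detected in 21.9% (19.5 to 24.5) of HKO members against 2.27% (1.91 to 2.68) of other gated nuclei, and in 25.8% (23.5 to 28.2) against 3.58% (3.18 to 4.02) in WT. Unthinned, the shares were 27.2% against 4.77% and 31.1% against 6.01%. Nuclei that failed the gate, at median depths of 4062.5 and 3813.5 UMIs, showed 4.37% and 6.56% after thinning. Most members thus held no Meg3 UMI in spite of the large ratio.

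The rest of the leading 15 genes included receptors, transporters and a surface enzyme. Nt5e, the surface enzyme CD73 that turns AMP into adenosine, was at 38.4 against 3.55 CPM in HKO and 34.4 against 3.402 CPM in WT, which is 10.8-fold (95% interval 8.45 to 13.97) in HKO and 10.1-fold (7.899 to 12.97) in WT. Col8a1, a short-chain collagen, stood at 75.2 against 6.03 CPM in HKO and 10.8 against 0.727 CPM in WT, so its level lay far apart between the libraries while the intervals of its ratio of members to others overlapped: 12.5-fold (95% interval 10.4 to 15.1) in HKO and 14.9-fold (9.01 to 25.6) in WT. Hcrtr2, the orexin receptor 2, was at 27.2 against 1.45 CPM in HKO and 11.6 against 0.859 CPM in WT. Tmeff2, a membrane protein with follistatin-like domains, was at 16.9 against 1.100 CPM in HKO and 75.5 against 5.75 CPM in WT. Each was named because the smaller of both ratios was among the 15 largest, unnamed gene models left out, so that rank is no separate result. In each of these genes the other gated nuclei were under 10 CPM in both libraries, so the members carried it past the 10 CPM mean. The WT levels of Col8a1 rest on 59 UMIs in members and 22 in others. Atp10a, a phospholipid flippase, had log2 ratios of 2.89 and 2.86 in HKO and WT. Npr2, the receptor of C-type natriuretic peptide, had 2.19 and 2.15, Fam19a2, a secreted chemokine-like protein, 2.13 and 1.96, and Slc1a5, a glutamine and neutral amino acid transporter, 1.90 and 2.07. Atp10a and Fam19a2 were likewise under 10 CPM in the other gated nuclei of both libraries, so the members carried them past that mean.

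**Figure D2:**
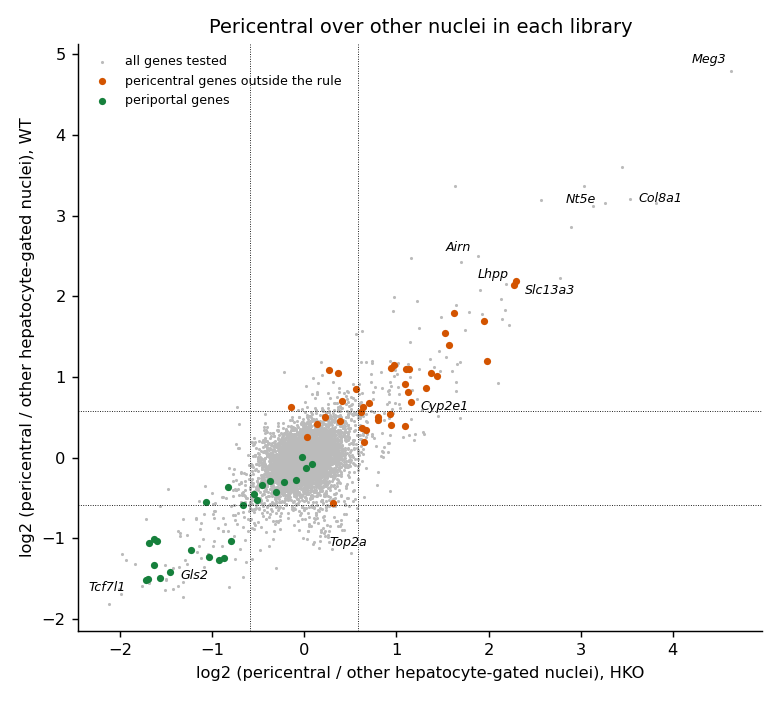
Log2 ratio of pericentral over other hepatocyte-gated nuclei in HKO (x axis) and WT (y axis) for 8432 genes, with listed pericentral genes in orange and periportal genes in green, and dotted lines at 1.5-fold. Meg3 stands at 4.64 and 4.80, and Top2a lies off the diagonal at 0.18 and -1.03.

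Negative feedback genes of Wnt signalling were higher in the members, while 17 of 18 tested signal transduction genes lay between the thresholds. Of 5 genes tested from a list of 15 Wnt feedback and target genes, 4 were higher in both libraries: Axin2, Notum, Rnf43 and Znrf3. These 4 are also among the 19 called pericentral genes given above. Axin2, a scaffold of the beta-catenin destruction complex, was at 25.7 against 8.58 CPM in HKO and 49.1 against 16.5 CPM in WT, or 2.99-fold (95% interval 2.39 to 3.73) in HKO and 2.97-fold (2.55 to 3.45) in WT. Notum, a secreted enzyme that inactivates Wnt ligands, was at 96.5 against 38.4 CPM in HKO and 79.8 against 43.7 CPM in WT. Rnf43, a ubiquitin ligase that removes Wnt receptors, was at 390.1 against 202 CPM in HKO and 495 against 229 CPM in WT, and its relative Znrf3 at 485 against 312 CPM in HKO and 361 against 232 CPM in WT. The fifth, Ccnd1, the gene of cyclin D1, is listed as a target and not as a feedback gene. It was between the thresholds and below 0, at 15.9 against 18.02 CPM in HKO and 12.7 against 21.5 CPM in WT.

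Among 7 tested Wnt receptors and surface regulators, of 16 listed, Rnf43 and Znrf3 were again the 2 called. The co-receptors went opposite ways within the threshold: Lrp5 had log2 ratios of 0.54 and 0.46 in HKO and WT and Lrp6 of -0.40 and -0.31. All 8 listed Frizzled receptor genes were under the 10 CPM floor. Of 18 tested transduction genes, of 23 listed, 1 was called, and it was lower. Over all genes tested, 1.3% were called higher and 1.04% lower. Ctnnb1, which encodes beta-catenin, was at 53.9 against 53.03 CPM in HKO and 59.2 against 57.4 CPM in WT, with log2 ratios of 0.02 and 0.04. Tcf7l1, a TCF factor that mostly represses Wnt targets, was at 53.1 against 181 CPM in HKO and 29.03 against 88.3 CPM in WT, lower by 3.402-fold (95% interval 2.999 to 3.87) in HKO and 3.04-fold (2.59 to 3.59) in WT. Tcf7l2, the more abundant TCF factor here, had log2 ratios of -0.19 and 0.06, and the corepressor gene Tle4 -0.57 and -0.44.

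The core TCF binding motif occurred at similar shares near the start sites of the called genes and of all genes tested. The letters ATCAAAG, or CTTTGAT on the other strand, were searched in RefSeq promoters (GRCm38.p6, 300 bases each, 250 of them before the start site). They occurred in 2 of 70 matched genes that were higher in members (2.86%) and in 2 of 58 that were lower (3.45%). The share was 194 of 6475 genes tested (2.996%) and 4.29% of all genes with a promoter. A gene counted where any of its promoters matched. The 4 windows are shown because they are the called genes with a match, named by that match, in lower case with the motif in capitals.
Cyp2c29: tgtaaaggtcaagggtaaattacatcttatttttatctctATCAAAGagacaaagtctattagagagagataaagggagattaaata
Tnfrsf19: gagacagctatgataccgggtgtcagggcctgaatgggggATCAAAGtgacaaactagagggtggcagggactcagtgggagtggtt
Hal: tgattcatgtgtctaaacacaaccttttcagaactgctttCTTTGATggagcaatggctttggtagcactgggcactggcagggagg
Tiam2: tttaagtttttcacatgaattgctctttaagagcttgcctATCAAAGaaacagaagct
Cyp2c29 (chr19:39286926-39287012, plus strand) and Tnfrsf19 (chr14:61038143-61038229, minus strand) were higher in members, at 512 against 198 CPM in HKO and 772 against 372 CPM in WT and at 12.7 against 3.58 CPM in HKO and 39.1 against 6.87 CPM in WT. Hal (chr10:93488529-93488615, plus strand) and Tiam2 (chr17:3483432-3483489, plus strand) were lower, at 21.7 against 65.6 CPM in HKO and 106 against 297 CPM in WT and at 4.81 against 12.3 CPM in HKO and 13.97 against 35.6 CPM in WT. A match describes these letters only.

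Some enzymes of drug and steroid oxidation were higher in members, while most of that list lay between the thresholds. Of 29 tested xenobiotic receptors and P450 enzymes, of 46 listed, 8 were higher in both libraries and 1 lower. Among all genes tested, 1.3% were called higher and 1.04% lower. Cyp2e1, Cyp2a5 and Cyp2c37 are also among the 19 called pericentral genes given above. Cyp2e1, the ethanol- and paracetamol-oxidising P450, was at 791 against 354 CPM in HKO and 2088 against 1297 CPM in WT, a ratio of 2.23-fold (95% interval 2.15 to 2.32) in HKO and 1.61-fold (1.58 to 1.64) in WT. Cyp2a5 was at 54.1 against 17.9 CPM in HKO and 58.6 against 21.9 CPM in WT. The other 6 were Cyp2c genes, among them Cyp2c37 at 70.6 against 17.9 CPM in HKO and 134 against 41.2 CPM in WT and Cyp2c67 at 467 against 231 CPM in HKO and 788 against 350.3 CPM in WT. The Cyp2c genes are closely related neighbours of the ranking gene Cyp2c38 and can share its reads, so their values are uncertain. Cyp1a2, a dioxin-inducible P450, did not reach the threshold in WT, at 45.1 against 25.7 CPM in HKO and 243 against 176 CPM in WT. The nuclear receptor gene Nr1i3, which encodes CAR, stood at log2 ratios of 0.13 and 0.42.

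Metabolic genes of further paths were higher in members. Apart from Prodh, the higher genes named here are among the 19 called pericentral genes given above. Lhpp, a histidine phosphatase gene, was at 388 against 79.96 CPM in HKO and 402 against 90.7 CPM in WT, which is 4.86-fold (95% interval 4.57 to 5.17) in HKO and 4.44-fold (4.19 to 4.69) in WT. Slc13a3, a sodium-coupled dicarboxylate carrier, was at 148 against 29.9 CPM in HKO and 204 against 44.3 CPM in WT. Oat, ornithine aminotransferase, which feeds glutamate and thus glutamine synthesis, was at 131 against 32.8 CPM in HKO and 164 against 71.3 CPM in WT. Prodh, an enzyme of proline breakdown, was at 145 against 90.99 CPM in HKO and 115 against 50.3 CPM in WT. Cyp7a1, the rate-limiting enzyme of bile acid synthesis, was at 497 against 253 CPM in HKO and 131 against 58.6 CPM in WT, and the bile acid uptake carrier gene Slco1b2 at 1878 against 1151 CPM in HKO and 2676 against 1676 CPM in WT. By contrast Cyp39a1, which hydroxylates an oxysterol on the way to bile acids, was lower, at 29.3 against 73.6 CPM in HKO and 9.92 against 17.1 CPM in WT. Gulo, the last enzyme of vitamin C synthesis, had log2 ratios of 1.14 and 1.10 in HKO and WT, Car3, a carbonic anhydrase, 1.44 and 1.02, and Blvrb, biliverdin reductase B, 1.09 and 0.92.

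Of 27 liver transcription factors tested, of 29 listed, 3 were higher in both libraries and none lower. Among all genes tested, 1.3% were called higher and 1.04% lower. Of the 3, Tbx3 is also among the 19 called pericentral genes given above. Tbx3, a T-box repressor, was at 100.1 against 32.1 CPM in HKO and 105 against 29.99 CPM in WT, or 3.12-fold (95% interval 2.78 to 3.49) in HKO and 3.498-fold (3.15 to 3.89) in WT. Its antisense partner Tbx3os1, which overlaps its first bases on the opposite strand, was at 48.5 against 5.07 CPM in HKO and 139.7 against 15.7 CPM in WT. Esrrg, an orphan nuclear receptor of energy metabolism, was at 205 against 46.05 CPM in HKO and 289 against 86.9 CPM in WT. Cux2, a homeobox gene with sex-biased expression in liver, was at 138 against 83.3 CPM in HKO and 5.33 against 2.35 CPM in WT. It reached the 10 CPM mean through HKO alone, and its WT levels rest on 29 UMIs in members and 71 in others. The remaining 24 factors were between the thresholds.

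Some of the calls lay beside the genes used for ranking. Within 1000000 bases of a ranking gene lay 63 tested genes, of which 11 were higher in both libraries and 1, Cyp39a1, was lower. Over all 8432 genes tested, 1.3% were higher and 1.04% lower, so neighbours of ranking genes were called higher more often. The reason was not tested. The other 99 of the 110 higher genes lay farther away. Airn, a noncoding RNA of the imprinted Igf2r cluster (chr17:12741311-12860136), was at 1458 against 393 CPM in HKO and 1339.6 against 236 CPM in WT. Igf2r, the receptor of insulin-like growth factor 2, overlaps Airn on the opposite strand and was at 152 against 54.03 CPM in HKO and 137 against 40.7 CPM in WT. A930009A15Rik lies within the ranking gene Lgr5 on the opposite strand and was at 183 against 26.4 CPM in HKO and 110.4 against 23.1 CPM in WT. Igf2r and A930009A15Rik were named after their values were seen. The sources used here do not say whether counting used strand, so reads of overlapping genes, Tbx3 and Tbx3os1 included, cannot be told apart.

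Lower in the members were enzymes of urea synthesis and amino acid breakdown. Of 22 tested genes of the urea cycle and of glutamine and glutamate handling, of 25 listed, 5 were lower in both libraries (Gls2, Cps1, Arg1, Ass1 and Otc, the last named after its values were seen) and 2 higher (Oat and Prodh). Among all genes tested, 1.04% were called lower and 1.3% higher. Apart from Otc, the 5 lower genes are also among the 14 called periportal genes given above. Gls2, the liver glutaminase, was at 71.9 against 199 CPM in HKO and 53.1 against 142 CPM in WT, lower by 2.76-fold (95% interval 2.48 to 3.09) in HKO and 2.68-fold (2.38 to 3.03) in WT. Cps1, the entry enzyme of the urea cycle, was at 2355 against 4079 CPM in HKO and 1264 against 2579.9 CPM in WT, lower by 1.73-fold (95% interval 1.699 to 1.77) in HKO and 2.04-fold (1.99 to 2.09) in WT. Arginase, from Arg1, was at 411 against 780.3 CPM in HKO and 337 against 814 CPM in WT, and argininosuccinate synthase, from Ass1, at 334 against 612 CPM in HKO and 99.05 against 235 CPM in WT.

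Histidine, serine and glycine breakdown followed the same direction. Hal, Uroc1, Sds, Gldc and Cyp2f2 are likewise among the 14 called periportal genes given above. Hal, histidine ammonia lyase, at the levels given with its promoter, was lower by 3.02-fold (95% interval 2.48 to 3.71) in HKO and 2.81-fold (2.58 to 3.06) in WT. Uroc1, the next enzyme of that path, was at 151 against 355 CPM in HKO and 138 against 306 CPM in WT. Sds, serine dehydratase, was at 109 against 355 CPM in HKO and 33.3 against 95.4 CPM in WT. Gldc, which cleaves glycine, was at 74.4 against 232 CPM in HKO and 79.6 against 200.5 CPM in WT. Cyp2f2, a periportal P450, was at 51.6 against 167 CPM in HKO and 70.6 against 147 CPM in WT, lower by 3.24-fold (95% interval 2.85 to 3.69) in HKO and 2.09-fold (1.88 to 2.32) in WT. The glucose output list had 1 call of 11 tested genes, Sds. Pck1, the control enzyme of gluconeogenesis, was between the thresholds at log2 ratios of -0.30 and -0.42, as was G6pc, glucose-6-phosphatase, at -0.22 and -0.31.

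Genes of varied roles made up the rest of the lowest 15, of which Cdh1 is also among the 14 called periportal genes given above. Cdh1, which encodes E-cadherin, was at 16.3 against 54.9 CPM in HKO and 13.4 against 39.4 CPM in WT, lower by 3.37-fold (95% interval 2.68 to 4.28) in HKO and 2.94-fold (2.32 to 3.77) in WT. Chrm3, a muscarinic receptor, was at 79.2 against 256 CPM in HKO and 112 against 329 CPM in WT, and Grm8, a metabotropic glutamate receptor, at 83.4 against 239 CPM in HKO and 72.6 against 183 CPM in WT. Fgfr1, a fibroblast growth factor receptor, was at 11.5 against 33.5 CPM in HKO and 5.88 against 17.5 CPM in WT. Plxna2, a semaphorin receptor, had log2 ratios of -1.50 and -1.52 in HKO and WT, Bmper, a BMP-binding protein, -1.38 and -1.59, and the transcription factor gene Zbtb7c -1.42 and -1.63. Cryl1, an enzyme of the glucuronate path, had -1.99 and -1.69, Sfxn1, a mitochondrial serine carrier, -1.43 and -1.36, Adrbk2, a receptor kinase, -1.51 and -1.64, and Arsg, an arylsulfatase, -1.36 and -1.36.

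The members were not uniform, and genes differed in how steeply their levels sloped along the ranking. Meg3 was sharply restricted: in HKO it was at 837 CPM in the top 5% of gated nuclei, 255 in the next 5%, 68.3 in the last 5% of the members and 10.4 in the lowest 50%. In WT the corresponding Meg3 levels were 1135, 307, 115 and 16.3 CPM. Nt5e was restricted in a like way, at 76.4, 31.2, 11.6 and 2.64 CPM in HKO and 53.4, 28.5, 20.1 and 2.65 in WT. Lhpp had a broader slope, at 541, 379.6, 259.9 and 51.8 CPM in HKO and 547, 376, 273 and 72.1 in WT. Cyp2e1 sloped least of these 4, at 933, 775, 679 and 292 CPM in HKO and 2236, 2094, 1919.7 and 1140.5 in WT. The periportal gene Cps1 climbed from 1405 CPM in the top 5% to 4225 in the lowest 50% in HKO and from 916 to 2734 in WT. These levels describe the order that the ranking imposed.

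**Figure D3:**
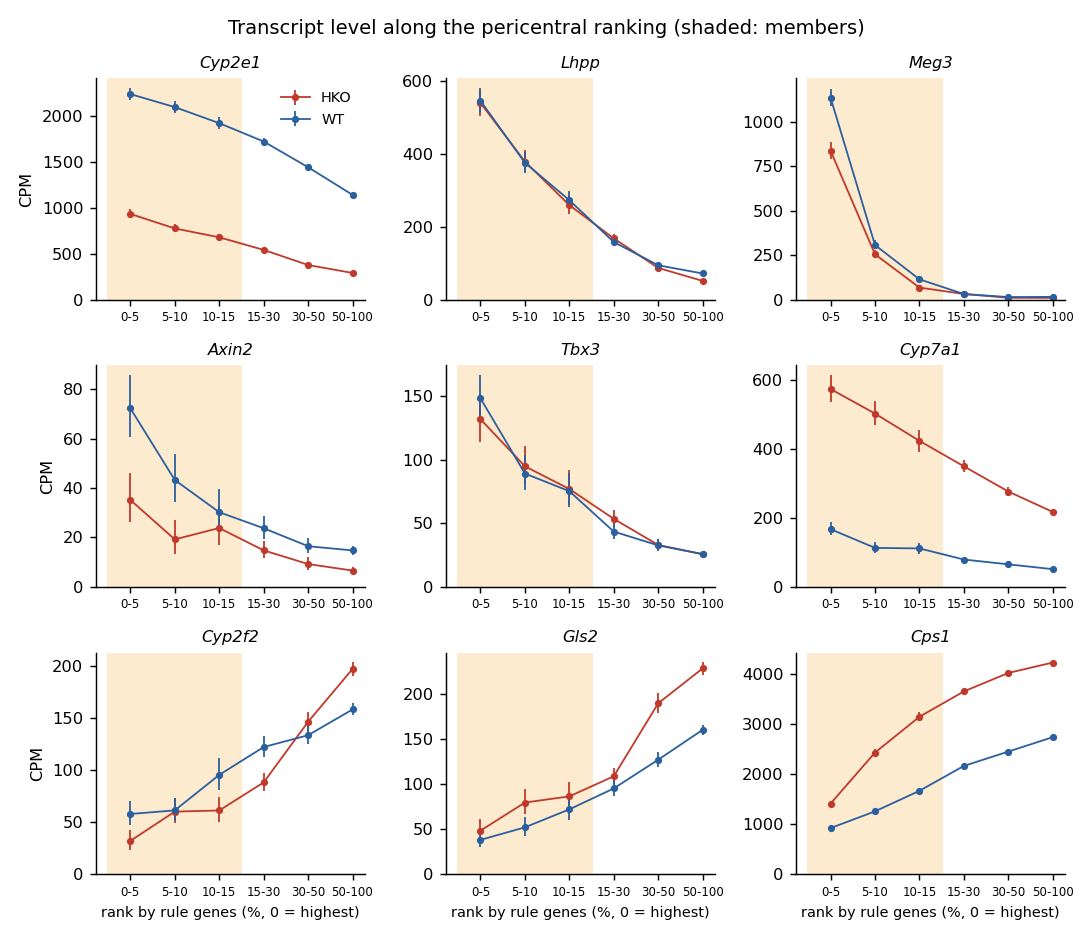
CPM of 9 genes (y axes, each from 0) in successive parts of the ranking by the 8 rule genes (x axis, percent of gated nuclei from the highest share), in HKO (red) and WT (blue), with exact 95% counting intervals and the member nuclei shaded. Meg3 drops from 837 and 1135 CPM in the top 5% to 10.4 and 16.3 in the lowest 50%, whereas Cps1 climbs throughout.

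Several other functions of the liver gave few or no calls between members and other gated nuclei. Over all 8432 genes tested, only 1.3% were called higher and 1.04% lower, so few calls in such short lists do not set them apart. No gene was called in either direction among 28 tested conjugation enzymes (medians 0.17 in HKO and 0.26 in WT), 23 of fatty acid oxidation and ketone synthesis (-0.02 in HKO and 0.22 in WT), 19 interferon-induced genes (-0.02 in HKO and -0.03 in WT), 17 clock genes (-0.06 in HKO and -0.19 in WT) or 15 of glucose uptake and glycolysis (-0.11 in HKO and 0.07 in WT). The hypoxia list had 1 call of 15, Egln3, an oxygen-sensing prolyl hydroxylase, at 13.6 against 8.02 CPM in HKO and 26.3 against 13.4 CPM in WT. Of 42 secreted plasma proteins, C9, a complement component, was the 1 called, at 325 against 622 CPM in HKO and 535 against 978 CPM in WT. Albumin, from Alb, was at 2646 against 2505 CPM in HKO and 6733 against 7086 CPM in WT. Malat1, a nuclear retained RNA, was at 49620.5 against 51087 CPM in HKO and 36873 against 38051 CPM in WT.

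The second comparison set HKO against WT within the pericentral class. Sox9, the targeted gene, had 14 UMIs in HKO members (2.93 CPM) and 35 in WT members (6.43 CPM), which is 2.199-fold (95% interval 1.15 to 4.42) lower in HKO. In the other gated nuclei it was at 6.31 and 11.9 CPM. Its mean was under the 10 CPM floor, and the labels do not give the deleted exons, so UMIs of a deleted allele may be counted.

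Most tested interferon-induced genes, and most of the list of secreted plasma and acute phase proteins, were lower in HKO pericentral nuclei. Clock genes were on balance higher. The medians of these lists were close to those in the other gated nuclei of these 2 libraries. At least 2-fold higher in HKO members were 285 of 8432 genes (3.38%), and at least 2-fold lower were 375 (4.45%). Of the 285, 210 were also 2-fold higher in HKO among the other gated nuclei, and of the 375, 316 were also lower there. No gene went 2-fold in opposite directions in members and others. The median log2 HKO/WT ratio over all genes was 0.19 in members and in others. TMM scaling removed it, with a shift of -0.19 on the log2 scale, after which 173 genes were higher and 541 lower. Median ratio size factors, with a shift of -0.16, left 183 and 507. The share of higher among called genes was 43.2% without these factors and 24.2% and 26.5% with them.

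Of the 10 genes named for the largest HKO/WT ratios in members, 3 were clock genes. Per1, a core repressor of the clock, was at 72.5 (HKO) and 6.06 CPM (WT), and Ciart, a circadian repressor, at 21.7 (HKO) and 1.29 CPM (WT). Per1 and Ciart were under 10 CPM in WT members, so their ratios rest on low WT counts. Noct, a rhythmic phosphatase gene, was at 280.0 (HKO) and 28.7 CPM (WT). Of 17 clock genes tested, of 20 listed, 8 were at least 2-fold higher in HKO members and 3 lower. The median log2 HKO/WT ratio of the list was 0.94 in members and 0.81 in others, and the labels do not give the time of day of sampling. Zbtb16, a transcription factor gene, had log2 HKO/WT ratios of 3.30 and 3.25 in members and others, Mfsd2a, a carrier of lysophospholipids, 3.53 and 3.26, Lepr, the leptin receptor gene, 3.73 and 4.29, and Ntf3, a neurotrophin gene, 3.30 and 3.04. Selenbp2, which codes for a protein that binds selenium, stood at 449.8 (HKO) and 19.3 CPM (WT) in members, and Cux2 at the levels given above.

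On the lower side, 15 of 19 tested interferon-induced genes, of 34 listed, were at least 2-fold lower in HKO members and none was higher, with a median log2 ratio of -2.32 in members and -2.26 in others. In members, Iigp1, an interferon-induced GTPase, was at 109.7 (HKO) and 2117 CPM (WT), Igtp at 7.94 (HKO) and 111 CPM (WT) and Cd274, which encodes PD-L1, at 6.48 (HKO) and 84.9 CPM (WT). Gbp6 and Cxcl10, a chemokine gene, were also among the 10 lowest, with log2 ratios of -4.25 and -4.29 in members, and Gbp6 shares reads with its relatives. Of 42 secreted proteins, 28 were at least 2-fold lower and none higher, with medians of -1.54 in members and -1.69 in others. Nr0b2, the bile acid-induced repressor SHP, was at 6.89 (HKO) and 90.04 CPM (WT) in members and Scd1, a fatty acid desaturase, at 8.15 (HKO) and 131 CPM (WT). Mup7, of a family of major urinary proteins that share reads, was at 4.81 (HKO) and 72.4 CPM (WT), Clec2h, a lectin gene, at 1.04 (HKO) and 18.9 CPM (WT) and Olfr56, an olfactory receptor gene, at 2.298 (HKO) and 37.9 CPM (WT). In HKO members, Igtp, Cd274, Nr0b2, Scd1, Mup7, Clec2h and Olfr56 were under 10 CPM, so their ratios rest on low HKO counts.

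The listed pericentral genes had a lower median in HKO, although most members of the list lay between the thresholds. Of the 38 listed genes outside the rule, 6 were at least 2-fold lower and 2 at least 2-fold higher in HKO members, where 4.45% and 3.38% of all genes were, with a median log2 ratio of -0.46 in members and -0.41 in others, against 0.19 over all genes. Over the settings tried, the median in members ran from -0.65 to -0.32. Lower in HKO members were Cyp2e1, at 791 (HKO) and 2088 CPM (WT), Cyp1a2, at 45.1 (HKO) and 243 CPM (WT), and Car3, at 28.6 (HKO) and 99.8 CPM (WT). Cyp2c50, the cytokine gene Lect2 and the methyltransferase gene Inmt were the other 3. Higher were Cyp7a1, at 497 (HKO) and 131 CPM (WT), and Csad, an enzyme of taurine synthesis, at 90.9 (HKO) and 40.4 CPM (WT). None of the 5 tested Wnt feedback and target genes passed 2-fold. Axin2 was at 25.7 (HKO) and 49.1 CPM (WT), 1.91-fold (95% interval 1.54 to 2.38) lower in HKO, and Tbx3 and Lhpp had log2 ratios of -0.07 and -0.05.

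**Figure D4:**
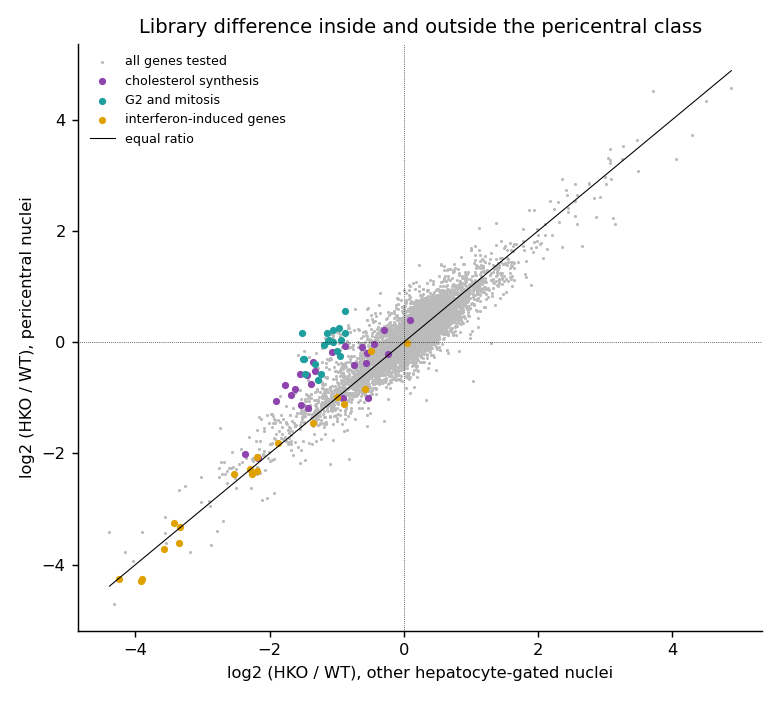
Log2 ratio of HKO over WT in other hepatocyte-gated nuclei (x axis) and in pericentral nuclei (y axis) for 8432 genes, with the line of equal ratios, cholesterol synthesis genes in purple, G2 and mitosis genes in teal and interferon-induced genes in yellow. Interferon-induced genes lie along the line, with medians of -2.26 and -2.32, while G2 and mitosis genes lie above it, with medians of -1.13 and 0.01, the latter from -0.53 to 0.06 over the settings tried.

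Where the 2 libraries differed in the pericentral ratio itself, cholesterol synthesis and cell cycle genes stood out. Among the 3712 genes whose mean reached 50 CPM, the ratio of members to others was at least 1.5-fold larger in HKO for 32 (0.862%) and at least 1.5-fold larger in WT for 15 (0.404%). Cholesterol synthesis genes held 7 of the 32, out of 14 of that list tested at this floor. Hmgcs1, which makes HMG-CoA for the mevalonate path, was at 77.9 against 31.3 CPM in HKO and 133 against 108 CPM in WT, so its ratio was 2.49-fold (95% interval 2.201 to 2.81) in HKO and 1.23-fold (1.13 to 1.33) in WT. Fdps, farnesyl diphosphate synthase, was at 56.2 against 22.7 CPM in HKO and 84.3 against 67.4 CPM in WT. Msmo1, a sterol methyl oxidase, was at 108 against 46.6 CPM in HKO and 122 against 98.9 CPM in WT, and Sqle, squalene epoxidase, at 47.2 against 26.9 CPM in HKO and 61.01 against 69.2 CPM in WT. The other 3 were Fdft1, squalene synthase, Nsdhl and Cyp51, of which Cyp51 was named after its values were seen.

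Over the whole list of 25 cholesterol synthesis genes the median log2 ratio of members to others was 0.78 in HKO and 0.17 in WT, and the ratio was larger in HKO for 23 of 25, against 4343 of 8432 over all genes. Summed, the list was at 1716 against 1155 CPM in HKO and 2522 against 2259 CPM in WT. In HKO it declined along the ranking from 1871 CPM in the top 5% to 1089.7 in the lowest 50%, and in WT from 2539 to 2239.5. Read as HKO against WT, 7 of the 25 genes were at least 2-fold lower in HKO members and 14 in the other gated nuclei, with medians of -0.58 and -1.33. With TMM scaling, as under each other setting tried, the list stayed below 0 in HKO members, with medians from -0.77 to -0.40.

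Genes of DNA replication and mitosis had lower levels in pericentral than in other nuclei in WT and similar or slightly higher ones in HKO, a difference that has no replicate check. The 19 tested G2 and mitosis genes, of 36 listed, had a median log2 ratio of 0.18 in HKO and -0.96 in WT. Over the settings tried the WT median ran from -1.23 to -0.30 and the HKO median from 0.03 to 0.25, with the median difference (HKO minus WT) from 0.38 to 1.33. Its lowest value, 0.38, came from leaving out nuclei with 3 or more G2 and mitosis UMIs, and with the top 25% as members it was 0.86. The 27 tested S phase genes, of 37 listed, had medians of 0.20 in HKO and -0.41 in WT. The ratio was larger in HKO for 19 of 19 and 27 of 27 genes. Top2a, the topoisomerase of chromosome condensation, was at 38.4 against 33.98 CPM in HKO and 47.4 against 97.1 CPM in WT. Diaph3, a formin of the dividing cell cortex, was at 60.2 against 53.6 CPM in HKO and 56.8 against 112 CPM in WT, and Cenpp, a centromere protein gene, at 92.1 against 69.2 CPM in HKO and 61.01 against 114 CPM in WT.

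Shares of nuclei gave the same order. Thinned to 2000 UMIs, 8.07% (6.68 to 9.66) of WT members had 3 or more UMIs from G2 and mitosis genes against 16.5% (15.7 to 17.4) of the other gated nuclei. In HKO the shares were 8.98% (7.34 to 10.8) and 6.95% (6.32 to 7.61), whose intervals overlap. Unthinned, they were 18.9% and 29.1% in WT and 14.5% and 13.4% in HKO. Nuclei that failed the gate showed 14.4% in HKO and 19.9% in WT after thinning. The part of free RNA in such shares was not tested. Set side by side, members were at 8.98% in HKO and 8.07% in WT, and other gated nuclei at 6.95% and 16.5%. With 1 library per group, these intervals over nuclei do not measure a difference between HKO and WT. The HKO/WT medians of the G2 and mitosis list were 0.01 in members, from -0.53 to 0.06 over the settings tried, and -1.13 in others.

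Along the ranking, the summed G2 and mitosis list was low in the top 5% of both libraries, at 224 CPM in HKO and 297 in WT. In the next 5% it was at 499.5 and 421 CPM, and in the last 5% of the members at 472 and 631. It went on to 351 CPM in the lowest 50% in HKO and to 898 in WT. The S phase list went from 642 CPM in the top 5% to 623 in the lowest 50% in HKO, with 885 in between, and from 658 to 1119.9 in WT. The top 5% thus had the lowest G2 and mitosis level of the 6 parts in each library.

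**Figure D5:**
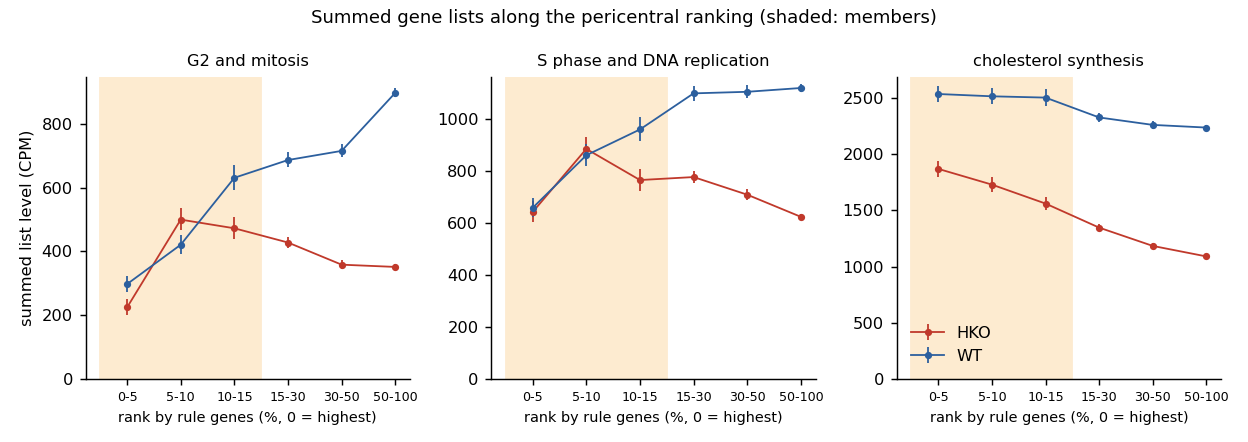
Summed CPM of the G2 and mitosis, S phase and cholesterol synthesis lists (y axes, from 0) in successive parts of the ranking (x axis, percent of gated nuclei from the highest share), in HKO (red) and WT (blue), with exact 95% counting intervals and the members shaded. G2 and mitosis levels are at 224 CPM in HKO and 297 in WT in the top 5%, at 472 and 631 in the last 5% of the members, and at 351 and 898 in the lowest 50%.

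The 8 named genes with the ratio most in favour of WT had varied roles. Acacb, the acetyl-CoA carboxylase of the mitochondrial surface, was at 169 against 153 CPM in HKO and 187 against 98.1 CPM in WT. Aldh3a2, a fatty aldehyde dehydrogenase, was at 91.9 against 46.8 CPM in HKO and 105 against 29.6 CPM in WT, and Rdh16, a retinol dehydrogenase, at 124 against 108 CPM in HKO and 112 against 54.5 CPM in WT. Acaa1b, a peroxisomal thiolase, was at 121 against 109.9 CPM in HKO and 182 against 105 CPM in WT. Lpin1, a phosphatidate phosphatase, was at 441 against 589 CPM in HKO and 44.7 against 35.1 CPM in WT, so its ratio lay on opposite sides of 1. Nceh1, a cholesteryl ester hydrolase, Elmo1, a regulator of Rac, and Spred2, an inhibitor of Ras signalling, completed the 8, with differences in log2 ratio (HKO minus WT) of -0.65, -0.68 and -0.67. Of 23 tested genes of fatty acid oxidation and ketone synthesis, 20 had the larger ratio in WT and 2, Acaa1b and Bdh1, passed the threshold, out of 15 tested at the 50 CPM floor. Of 24 genes of fatty acid and triglyceride synthesis, 14 had the larger ratio in WT, against 4089 of 8432 genes overall. On the HKO side, Mup11, of the Mup family, was at 14.8 against 6.21 CPM in HKO and 163 against 139.9 CPM in WT, and its reads may belong to its relatives.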

How the data were processed

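Nuclear RNA of liver was counted per nucleus in 2 droplet libraries. The authors deposited raw UMI counts per gene and barcode, whole numbers with no normalization. Per the file headers they were made with Cell Ranger 5.0.0, and the submitters' processing notes list GRCm38, Seurat 3.2.0 and STAR without saying what each was used for. The labels' extract protocol describes total RNA purification, and does not say how nuclei were isolated. Libraries held 61123904 (HKO) and 64609301 (WT) UMIs, with medians of 3286 and 3430 per barcode.

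Rows sharing a gene name were summed, giving 27933 names. UMIs were summed per library over members and over other gated nuclei, scaled to CPM and compared as log2 ratios with a pseudocount of 0.5 CPM. Genes needed a mean of 10 CPM (50 CPM for differences between ratios). A gene was called at 1.5-fold in both libraries for members against others, at 2-fold for HKO against WT, and at 1.5-fold for the difference of ratios. Intervals were Poisson, conditional binomial for ratios, or Clopper-Pearson for shares. Members and others share a library, and both comparisons share the members. Shares of nuclei used 1 random thinning to 2000 UMIs. No doublets were removed. Markers showed whether other cells' RNA moved with a result. Of list names, Gbp11 was not matched.

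Members and lists were chosen with earlier results of these data known. Named genes were the 15 highest and 15 lowest by the weaker of both libraries' ratios, the 10 highest and 10 lowest HKO/WT ratios in members, the 8 largest differences in each direction, up to 6 members of each list by mean absolute ratio, any listed Wnt, pericentral or periportal gene, and Sox9, Alb and Malat1. Unnamed gene models, mitochondrial, ranking and gate genes were left out, and exceptions are stated. 1 gene that the rule names is not reported here. Coordinates came from GENCODE vM21 (GRCm38), which matched 27645 of 27998 rows. Python 3.11.15, numpy 2.4.6, scipy 1.17.1 and pandas 2.3.3 were used, with edgeR 4.0.16 for TMM factors only. Poisson counts were simulated for the sums of members and others over 8432 genes. Of genes at log2 changes of -2, 1 and 2, 100% were called, of those at -1, 95.6%, and of 8235 unchanged genes, 0. The simulation held no variation between nuclei or animals and no ranking step. It therefore checks the calling code and not the error rate in these data.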

Additional observations from a re-analysis of the deposited data

Results flagged for a closer look

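S phase and DNA replication genes had a median log2 ratio of members to others that was 0.60 higher in HKO than in WT (0.20 in HKO and -0.41 in WT). For G2 and mitosis genes the medians were 0.18 in HKO and -0.96 in WT, a difference of 1.14. These were singled out because the list medians lay above 0 in HKO and below 0 in WT and differed by at least 1.5-fold. The noncoding RNA gene Gm31121, named after its values were seen, was the 1 gene that passed 1.5-fold in opposite directions, at 8.98 against 15.2 CPM in HKO and 18.9 against 12.02 CPM in WT, with 43 UMIs in HKO members and 103 in WT members. Its log2 ratio in HKO minus that in WT was -1.36. With 1 library per group, none of the 3 differences was tested.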

How the results depend on the processing

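Counts of genes followed the floor on low levels. With a floor of 1 CPM, 243 genes were higher and 186 lower in members in both libraries, 648 higher and 691 lower in HKO members, and the member ratio was larger in HKO for 931 and in WT for 593. With floors of 50 CPM, and 200 CPM for the difference, these counts were 52, 41, 120, 181, 8 and 2. TMM scaling gave 173 genes higher in HKO members and median ratio size factors 183. The count with a larger ratio in HKO was 20 when the top 25% were members and 51 against the lowest 15% of the ranking, and that in WT was 6 and 31, and 23 for the top 10% and 24 with levels thinned to 2000 UMIs. The share of members with G2 and mitosis UMIs was 15% in HKO and 19.0% in WT at 2 UMIs, 3.89% and 2.89% at the lower of the thinning depths tried, 14.5% and 18.9% without thinning, and in WT 5.56% for the top 10% and 11.4% for the top 25%. Cxcl10 turned from a log2 ratio of -0.69 in HKO to 0.43 with the top 25% and 0.62 against the lowest 15%. The cause of these changes was not tested, beyond the number of genes that each floor admits. Of the 110 higher genes, 78 were still called with the top 25% as members and 101 when ranked without Cyp2c38 and Slc22a3, an alternative chosen after seeing the data, as was leaving out shared barcodes (109). Median differences between libraries were from 0.38 to 1.33 for G2 and mitosis and from 0.35 to 0.59 for cholesterol synthesis over all settings. No paired analysis was possible because each group is 1 library. Counting error limits genes near the floor, and the spread between animals is unknown.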

Other observations

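Growth factor receptors and ligands were mostly even along the ranking, with 2 of 18 tested genes lower in members in both libraries (Fgfr1 and Igfbp2, an IGF-binding protein gene) and medians of -0.03 in HKO and -0.03 in WT. Igfbp2 was at 29.3 against 50.2 CPM in HKO and 52.2 against 85.8 CPM in WT. D cyclins, cell cycle inhibitors and polyploidy genes had no call among 9 tested, with medians of 0.05 in HKO and -0.10 in WT. Over all genes tested, 1.3% were called higher in members in both libraries and 1.04% lower. Among 24 tested genes of fatty acid and triglyceride synthesis, Aacs, which activates acetoacetate for lipid synthesis, was the 1 called, at 63.1 against 41.6 CPM in HKO and 182 against 96.1 CPM in WT. The list's medians were 0.19 in HKO and 0.22 in WT.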
